A study of Mus musculus with 28 samples.

Results

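The 5 genes described here encode the inducible parts of the proteasome: the catalytic subunits Psmb8, Psmb9 and Psmb10 of the immunoproteasome, and the subunits Psme1 and Psme2 of the PA28 activator. They were chosen by name, as a known gene family, with earlier results of these data known. All 5 of 5 were present and tested both in the table of treated MC38 cells, with 12721 genes, and in the table of MC38 co-cultures, with 12948 genes. MC38 is a mouse colon adenocarcinoma line of C57BL/6 origin. The series holds 28 samples, of which 19 MC38 libraries have values in the 2 tables, and the 9 OT1 T cell libraries were not analysed here.

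Cells treated in vitro fall into 5 groups of 2 libraries (10 in all): TNF, IFNG, both cytokines together (TNF + IFNG), supernatant taken from a co-culture, and no treatment. Co-cultures fall into 3 groups of 3 libraries (9 in all): MC38 with OT1 T cells under an isotype control antibody, MC38 with OT1 T cells under an antibody to the inhibitory receptor PD1, and MC38 alone. OT1 T cells are CD8 T cells whose transgenic receptor recognises a peptide of ovalbumin. Cytokines and T cells were present for 6 hours, and no time is recorded for supernatant. Nothing in the labels says that libraries of 1 group are separate cultures, and p-values therefore reflect only the spread between these libraries, which may be technical.

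The proteasome is a barrel whose inner rings carry 3 kinds of proteolytic subunit, and it produces most of the peptides that major histocompatibility complex class I molecules show to CD8 T cells. Interferons induce Psmb8, Psmb9 and Psmb10, which take the places of the constitutive subunits Psmb5, Psmb6 and Psmb7 in newly assembled particles and alter which bonds are cut. PA28, a ring of Psme1 and Psme2 chains, caps the barrel and opens its gate. Cells of the immune system, T cells among them, contain immunoproteasomes without being stimulated.

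Values are the authors' deposited normalized log2 CPM, from libraries that read only transcript 3' ends, where longer transcripts do not give more reads. Within a table all libraries had the same maximum, and above the median their sorted values differed by at most 0.0235 in vitro and 0.0238 in co-culture, so the libraries of a table had nearly the same distribution of values. Depth could therefore only be approximated: read from the steps between low values, it lay between 3360000 and 11200000 reads for the libraries treated in vitro, and between 3730000 and 11000000 reads for those of the co-culture table. The fewest reads behind any value of the 5 genes were then about 61.4, for Psmb9 in the first untreated library. The lowest depths were those of TNF + IFNG replicate 2 in vitro and of MC38 alone replicate 3 in co-culture. Libraries of 1 table correlated at r = 0.922 to 0.971 in vitro and at r = 0.895 to 0.969 in co-culture, over genes, and no 2 libraries were identical. Differences were tested with limma over all groups of a table, with Benjamini-Hochberg adjustment over all genes tested (12720 in vitro and 12707 in co-culture), and a gene is said to have risen or fallen where the adjusted p was under 0.05.

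Libraries of the co-culture table stand apart from their labels in 2 places. The library labelled MC38 alone, replicate 3, carried T cell transcripts: the 9 of 12 T cell markers in the table summed to 38.8 CPM in it, against 2.35 and 2.77 CPM in the other MC38 alone libraries. Anti-PD1 replicate 3 carries the word untreated in its title and treatment field, while its description names the anti-PD1 column, by which it was placed. The description of 1 isotype library has OT2 where the others have OT1. Co-culture results of the 5 genes are given with and without the first 2 of these libraries, called the doubted libraries below, and for other genes it is said where leaving out both ends a call. Keratin and other epithelial markers, which a carcinoma line could carry, were low in most libraries but not in all. Of 5, only Cdh1 was in the in vitro table. In co-culture the 5 summed to between 1.61 and 33.3 CPM. The highest sum was that of the first anti-PD1 library, where all 5 had log2 values between 0.88 and 4.44. The next was 11.9 CPM, in MC38 alone replicate 3.

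Psmb9, the immunoproteasome's counterpart of Psmb6, showed the widest range of the 5 genes. It lies on chromosome 17 (GRCm38, chr17:34181987-34187764, minus strand), head to head with Tap1, a subunit of the peptide transporter, whose annotated transcripts overlap its 5' end by 212 bases. The stretch of 225 bases between the RefSeq start sites of both genes (chr17:34187331-34187555, minus strand, read from Psmb9's side; RefSeq, GRCm38.p6) is shown because 1 short region lies upstream of 2 genes whose values are set side by side here. It is in lower case throughout, since none of 3 motifs searched was found in it.
Psmb9: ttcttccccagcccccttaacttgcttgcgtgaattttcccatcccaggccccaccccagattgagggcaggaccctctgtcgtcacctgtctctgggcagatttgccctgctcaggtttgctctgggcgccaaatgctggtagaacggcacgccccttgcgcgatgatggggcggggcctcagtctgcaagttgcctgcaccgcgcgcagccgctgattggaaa

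The 3 motifs were the interferon-stimulated response element core GAAANNGAAA, the gamma-activated site core TTCNNNGAA and the kappa B motif, each on both strands and in the 250 bases before to 50 bases after the start site. Of 32851 promoters of that length in RefSeq, 3.44% held the first, 8.30% the second and 4.51% the third. Among the 5 genes, Psme1 had 1 match to the interferon-stimulated response element core, starting at base 10 after the start site, and Psmb8 had 1 match to the gamma-activated site core, starting at base -97. Bases are counted from RefSeq start sites, and both matches lie within the GENCODE spans given below for these genes. Psmb9, Psmb10 and Psme2 had no match to any of the 3, which says only that these letters are not in these windows. Both matches are shown in capitals within their surroundings, chr17:34198058-34198146 (plus strand) for Psmb8 and chr14:55578493-55578522 (plus strand) for Psme1, to let them be set beside the values below.
Psmb8: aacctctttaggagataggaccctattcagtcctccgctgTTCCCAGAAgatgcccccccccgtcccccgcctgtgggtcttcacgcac
Psme1: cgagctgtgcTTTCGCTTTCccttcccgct

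Psmb9 values in vitro were 3.23 and 3.25 log2 CPM with TNF, 4.23 and 4.49 with IFNG, 4.56 and 4.99 with TNF + IFNG, 4.76 and 4.37 with supernatant, and 3.24 and 3.48 in untreated cells. The libraries with IFNG, TNF + IFNG and supernatant all lay above the untreated ones, and those with TNF overlapped them. Psmb9 rose 2.66-fold with TNF + IFNG (log2 fold change 1.41 ± 0.22 SE, limma adjusted p = 0.0132, n = 2 each). With supernatant the log2 fold change was 1.20 ± 0.22 (adjusted p = 0.0875), with IFNG 1.00 ± 0.22 (adjusted p = 0.197), and with TNF -0.12 ± 0.22 (95% confidence interval -0.62 to 0.38, adjusted p = 0.955). In the order of the levels, TNF and untreated overlapped, and so did IFNG, supernatant and TNF + IFNG among themselves. Psmb9 was also 2.88-fold higher with TNF + IFNG than with TNF (log2 fold change 1.53 ± 0.22, adjusted p = 0.0237), while the difference of TNF + IFNG from IFNG was 0.41 (95% confidence interval -0.09 to 0.91, adjusted p = 0.444).

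Psmb10, the counterpart of Psmb7, lies on chromosome 8 (chr8:105935735-105938444, minus strand), within the antisense gene Gm16156. Its values were 6.09 and 6.32 log2 CPM with TNF, 6.62 and 6.45 with IFNG, 6.84 and 6.65 with TNF + IFNG, 6.21 and 6.40 with supernatant, and 5.84 and 5.59 in untreated cells. All 8 treated libraries lay above both untreated ones, and only the TNF and supernatant libraries overlapped among neighbours in the order untreated, TNF, supernatant, IFNG, TNF + IFNG. Psmb10 rose 2.05-fold with TNF + IFNG (log2 fold change 1.04 ± 0.16, limma adjusted p = 0.0132). The log2 fold changes were 0.82 ± 0.16 with IFNG (adjusted p = 0.125), 0.59 ± 0.16 with supernatant (adjusted p = 0.476) and 0.49 ± 0.16 with TNF (95% confidence interval 0.12 to 0.85, adjusted p = 0.63).

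Psmb8, the counterpart of Psmb5, lies between Tap1 and Tap2 (chr17:34197721-34201454, plus strand), 495 bases from the first and 2072 from the second. Its values were 5.40 and 5.40 log2 CPM with TNF, 5.47 and 5.48 with IFNG, 5.03 and 5.71 with TNF + IFNG, 6.37 and 5.26 with supernatant, and 5.75 and 5.76 in untreated cells. Both TNF libraries, both IFNG libraries and both TNF + IFNG libraries lay below the untreated pair, and the supernatant libraries fell on either side of it. None of these differences passed the test: the log2 fold changes were -0.36 with TNF (95% confidence interval -1.12 to 0.40), -0.28 with IFNG (-1.04 to 0.48), -0.39 with TNF + IFNG (-1.15 to 0.37) and 0.05 with supernatant (-0.71 to 0.82), with limma adjusted p of 0.899, 0.761, 0.456 and 0.984 in that order. The 2 supernatant libraries differed by more than any other pair of Psmb8 in vitro.

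Both chains of PA28 are encoded on chromosome 14, Psme1 at chr14:55578123-55581529 on the plus strand and Psme2 at chr14:55587441-55591113 on the minus strand, 5911 bases apart. Psme1 values were 5.09 and 5.13 log2 CPM with TNF, 5.14 and 4.98 with IFNG, 5.48 and 5.18 with TNF + IFNG, 5.03 and 5.29 with supernatant, and 4.96 and 4.71 in untreated cells. Psme2 values were 6.92 and 7.06 with TNF, 6.99 and 7.10 with IFNG, 6.72 and 7.17 with TNF + IFNG, 7.24 and 6.67 with supernatant, and 7.01 and 6.79 in untreated cells. Every treated library lay above both untreated ones for Psme1, and the groups overlapped for Psme2. The log2 fold change of Psme1 was 0.49 ± 0.17 with TNF + IFNG (limma adjusted p = 0.101), and between 0.22 and 0.33 in the other treatments. For Psme2 the log2 fold changes lay between 0.04 and 0.15, with 95% confidence intervals that together spanned -0.45 to 0.64.

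**Figure D1:**
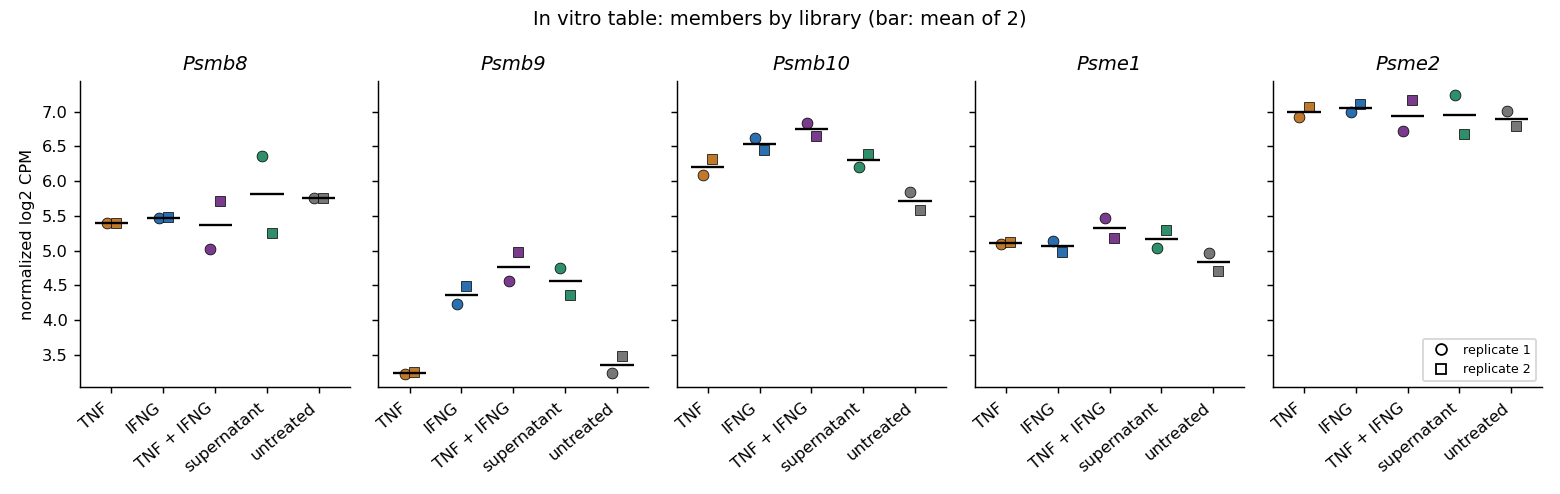
Level of each of the 5 genes in the in vitro libraries (y axis, log2 CPM; x axis, group); each point is 1 library, its shape the replicate, and each bar the mean of 2. Psmb9 lies above untreated cells with IFNG, TNF + IFNG and supernatant, and Psmb10 and Psme1 lie above them in every treatment. Psmb8 lies below untreated cells with TNF, IFNG and TNF + IFNG, and Psme2 overlaps them.

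Counted over the 5 genes, limma called 2 higher with TNF + IFNG against untreated cells (Psmb9 and Psmb10), where it called 4.77% of all genes higher and 9.02% in either direction. It called 0 of 5 with TNF, 0 of 5 with IFNG and 0 of 5 with supernatant, where it called 0.275%, 0.354% and 0.448% of all genes. At an unadjusted p under 0.05 were 1, 2 and 2 of the 5, beside 797, 1361 and 652 of all 12720 genes tested. These 4 comparisons share the same 2 untreated libraries. The median log2 fold change of the 5 genes was 0.09 with TNF, 0.22 with IFNG, 0.49 with TNF + IFNG and 0.33 with supernatant, against 0.01, 0.04, 0.02 and 0.01 over all genes.

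The calls with TNF + IFNG rested on few libraries. Without the second untreated library neither gene was called (adjusted p = 0.0737 for Psmb9 and 0.123 for Psmb10), and Psmb9 was also lost without the first untreated library (0.0827) or the second TNF + IFNG library (0.0501). The call of Psmb9 in TNF + IFNG against TNF, where 0.393% of all genes were higher and 0.417% were called in either direction, was lost in turn without either TNF library, either IFNG library or the second TNF + IFNG library, with the adjusted p reaching 0.153.

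Among the treatments themselves the 5 genes gave no other call. Limma called 0 of 5 in TNF + IFNG against IFNG, in supernatant against IFNG and in supernatant against TNF + IFNG. Of all genes it called 0.236%, 0.00786% and 0.236% in that order. At an unadjusted p under 0.05 were 0, 0 and 1 of the 5, beside 1707, 346 and 2132 of all 12720 genes tested. That 1 was Psmb10, with a log2 difference of -0.45 (95% confidence interval -0.81 to -0.08, adjusted p = 0.237). Whether TNF and IFNG together differed from the sum of their separate effects was tested as an interaction. The test called 0 of 5 and 0.0157% of all genes. At an unadjusted p under 0.05 were 0 of the 5, beside 500 of all 12720 genes tested. The interaction was 0.53 ± 0.31 log2 units for Psmb9 (95% confidence interval -0.18 to 1.23) and -0.28 ± 0.23 for Psmb10 (-0.79 to 0.24), both with an adjusted p of 0.962.

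In co-culture with OT1 T cells all 5 genes were higher than in MC38 alone, under both antibodies. Psmb9 values were 6.70, 6.69 and 6.72 log2 CPM in isotype co-cultures, 6.65, 6.73 and 7.01 in anti-PD1 co-cultures, and 4.87, 4.31 and 4.42 in MC38 alone. Every co-culture library lay far above all 3 of MC38 alone, and both antibody groups overlapped. Psmb9 rose 4.49-fold in isotype co-cultures (log2 fold change 2.17 ± 0.16, limma adjusted p = 1.03e-05, n = 3 each) and 4.79-fold in anti-PD1 co-cultures (2.26 ± 0.16, adjusted p = 7.21e-06).

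Psmb10 values were 7.21, 7.52 and 7.06 log2 CPM in isotype co-cultures, 7.32, 6.95 and 7.08 in anti-PD1 co-cultures, and 5.52, 5.54 and 5.48 in MC38 alone. The MC38 alone libraries were within 0.1 log2 units of each other, and every co-culture library lay far above them. It rose 3.36-fold in isotype co-cultures (log2 fold change 1.75 ± 0.14, limma adjusted p = 2.05e-05) and 3.04-fold in anti-PD1 co-cultures (1.60 ± 0.14, adjusted p = 3.92e-05).

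Psmb8, which was not called in any treatment in vitro, was 7.36, 7.46 and 7.24 log2 CPM in isotype co-cultures, 7.61, 7.15 and 7.52 in anti-PD1 co-cultures, and 5.86, 5.99 and 6.68 in MC38 alone. The highest of the MC38 alone values belongs to the library with T cell transcripts, and the groups did not overlap. Psmb8 rose 2.26-fold in isotype co-cultures (log2 fold change 1.18 ± 0.21, limma adjusted p = 0.00386) and 2.38-fold in anti-PD1 co-cultures (1.25 ± 0.21, adjusted p = 0.00259). The tables were normalized separately, and the difference between its co-culture and in vitro changes was not tested.

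Psme1 values were 5.99, 6.46 and 6.06 log2 CPM in isotype co-cultures, 6.39, 5.93 and 6.29 in anti-PD1 co-cultures, and 5.67, 5.34 and 5.48 in MC38 alone. The co-cultures lay above MC38 alone without overlap, by a smaller step than for the catalytic subunits. Psme1 rose 1.59-fold in isotype co-cultures (log2 fold change 0.67 ± 0.17, limma adjusted p = 0.0253) and 1.63-fold in anti-PD1 co-cultures (0.70 ± 0.17, adjusted p = 0.019). It was the only one of the 5 whose calls were lost on leaving out 1 library. The isotype call was lost without MC38 alone replicate 2 (adjusted p = 0.0741), isotype replicate 2 (0.0865) or isotype replicate 3 (0.0579), and the anti-PD1 call without MC38 alone replicate 2 (0.0569), anti-PD1 replicate 1 (0.0747) or anti-PD1 replicate 3 (0.0715).

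Psme2 values were 8.14, 8.04 and 8.01 log2 CPM in isotype co-cultures, 8.09, 8.07 and 8.09 in anti-PD1 co-cultures, and 7.37, 7.18 and 7.49 in MC38 alone. Its mean level was the highest of the 5 genes in every group of both tables. Psme2 rose 1.64-fold in isotype co-cultures (log2 fold change 0.72 ± 0.10, limma adjusted p = 0.00119) and 1.67-fold in anti-PD1 co-cultures (0.74 ± 0.10, adjusted p = 0.000937). Its retrogene copy Psme2b on chromosome 11 (chr11:48945354-48946190) is identical to it at 789 of 794 aligned bases, 99.4%, the 3' end included, so reads of both cannot be told apart with confidence and both values are uncertain as those of single genes. Psme2b rose by a log2 fold change of 0.91 ± 0.16 in isotype co-cultures (adjusted p = 0.00438) and 0.96 ± 0.16 in anti-PD1 co-cultures (adjusted p = 0.00305), and Psme2 minus Psme2b averaged between 1.80 and 2.05 log2 units over all groups.

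**Figure D2:**
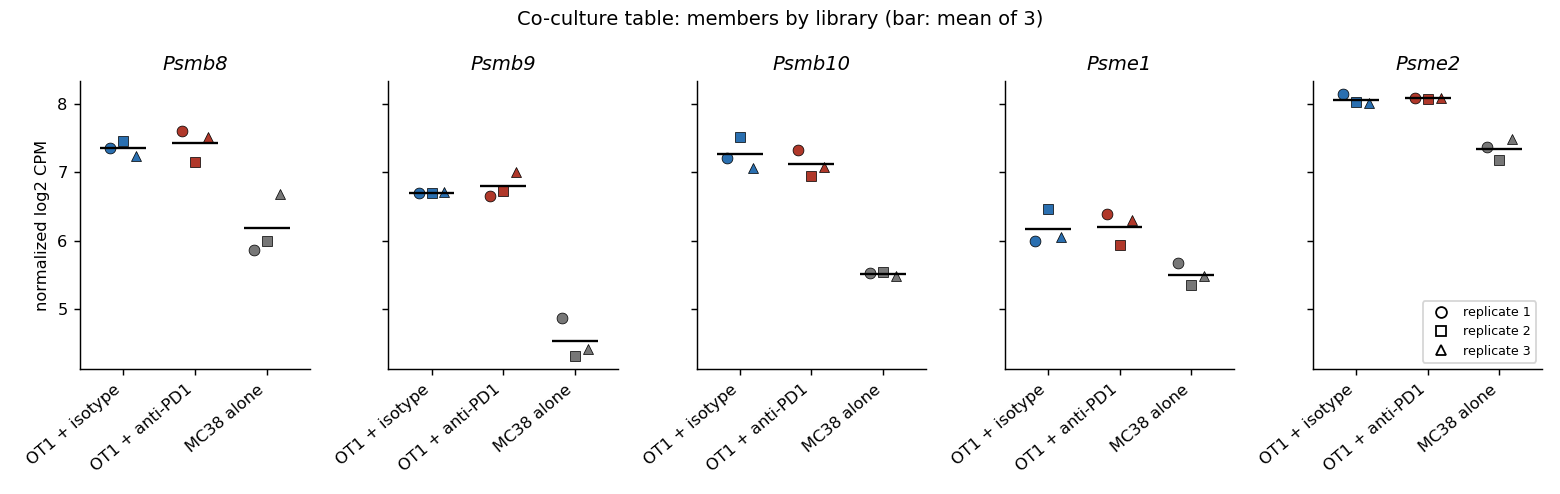
Level of each of the 5 genes in the co-culture libraries (y axis, log2 CPM; x axis, group); each point is 1 library, its shape the replicate, and each bar the mean of 3. For every gene the 6 co-culture libraries lie above the 3 libraries of MC38 alone, and the isotype and anti-PD1 libraries overlap.

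All 5 of 5 were called higher in isotype co-cultures, where 7.64% of all genes were called higher and 13.9% in either direction, and all 5 of 5 in anti-PD1 co-cultures, where 8.42% were called higher and 16.1% in either direction. Both comparisons share the MC38 alone libraries. The median log2 fold change of the 5 genes was 1.18 in isotype and 1.25 in anti-PD1 co-cultures, against -0.06 over all genes in both. Anti-PD1 against isotype called 0 of 5 (0 at an unadjusted p under 0.05) and 0% of all genes, of which 347 had an unadjusted p under 0.05 with limma. The log2 differences were 0.07 for Psmb8 (95% confidence interval -0.38 to 0.53), 0.09 for Psmb9 (-0.26 to 0.44), -0.15 for Psmb10 (-0.46 to 0.16), 0.03 for Psme1 (-0.34 to 0.41) and 0.02 for Psme2 (-0.21 to 0.25).

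**Figure D3:**
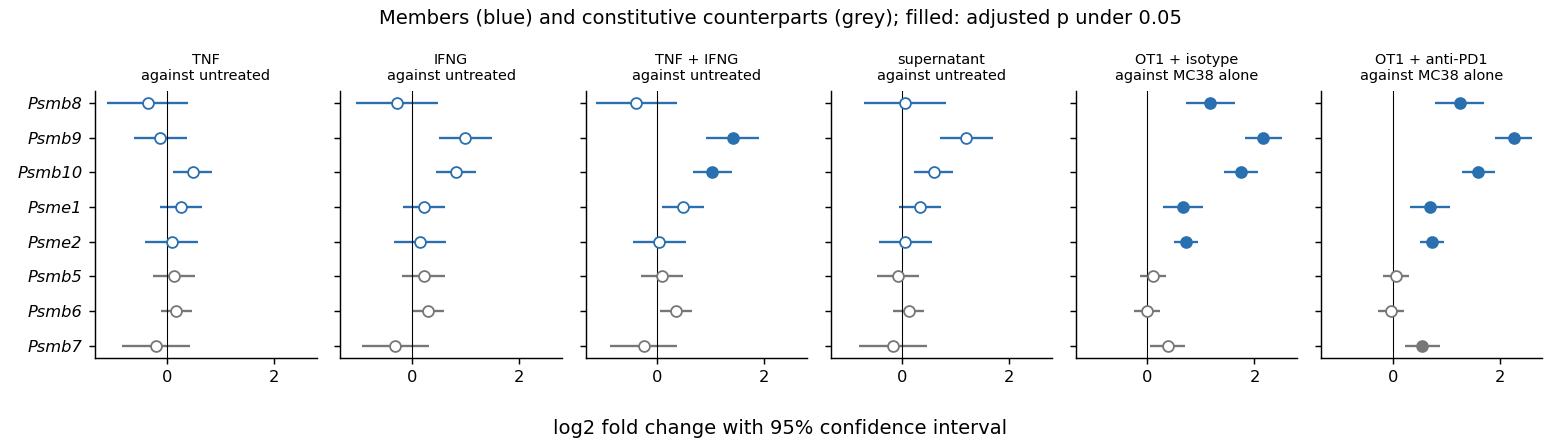
Log2 fold change (x axis) of the 5 genes in blue and their constitutive counterparts Psmb5, Psmb6 and Psmb7 in grey (y axis), with a panel for each treatment against untreated cells and each co-culture against MC38 alone; points are limma estimates, filled where the adjusted p was under 0.05, and lines are 95% confidence intervals. The intervals of all 5 genes lie above 0 in both co-cultures, with estimates of 2.17 and 2.26 for Psmb9.

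T cells carry immunoproteasomes themselves, so T cell transcripts in the co-culture libraries bear on these values. The 9 T cell markers summed to 55.2, 54.6 and 59.1 CPM in isotype co-cultures, 47.7, 56.9 and 60.9 CPM in anti-PD1 co-cultures, and 2.35, 2.77 and 38.8 CPM in MC38 alone, and Cd3e, Cd3g and Trac were not in the table. The sums were thus higher in every co-culture library than in any library of MC38 alone. The library labelled MC38 alone, replicate 3, had 8 of the 9 markers at a log2 value of 0 or more. Its Psmb9 (4.42), Psmb10 (5.48) and Psme1 (5.48) were not above both other MC38 alone libraries. Its Psme2 (7.49) and Psmb8 (6.68) were the highest of the 3. The part of T cell RNA in the rise of the 5 genes was not tested.

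Without that library all 5 genes were still called in both comparisons. The log2 fold change of Psmb8 was then 1.43 in isotype and 1.50 in anti-PD1 co-cultures, that of Psmb9 2.11 and 2.20, that of Psmb10 1.73 and 1.59, that of Psme1 0.66 and 0.70, and that of Psme2 0.79 and 0.81, in the same order of co-cultures. Without both it and anti-PD1 replicate 3, an alternative chosen after seeing the data, 4 of 5 were called in each comparison. The gene lost was Psme1, at 0.66 (limma adjusted p = 0.0513) in isotype and 0.65 (adjusted p = 0.0773) in anti-PD1 co-cultures. In bulk libraries, fewer cells of a type and less RNA per cell cannot be told apart.

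**Figure D4:**
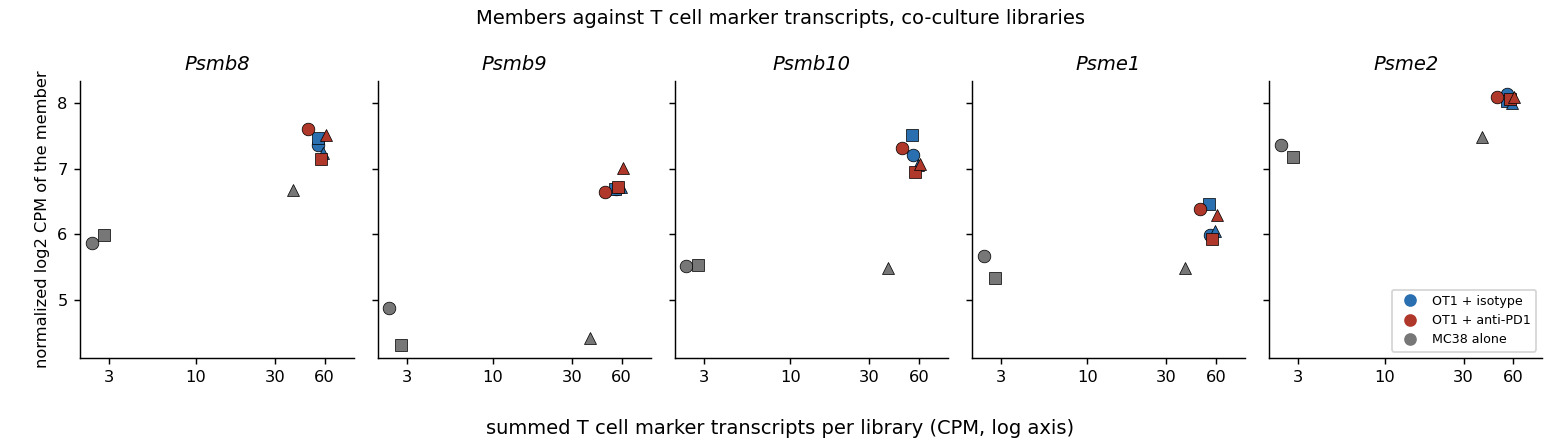
Level of each of the 5 genes (y axis, log2 CPM) against the summed T cell markers of the same library (x axis, CPM, log scale) in the 9 co-culture libraries. The library labelled MC38 alone, replicate 3, has 38.8 CPM of T cell markers and lies with the other MC38 alone libraries for Psmb9, Psmb10 and Psme1, and is the highest of the 3 for Psmb8 and Psme2; marker shapes stand for replicates.

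Each inducible subunit was next set against the constitutive subunit it replaces, as the log2 difference of both levels within a library. Against untreated cells or MC38 alone, limma called none of Psmb5, Psmb6 and Psmb7 in any treatment in vitro or in isotype co-cultures. In anti-PD1 co-cultures it called Psmb7 higher (log2 fold change 0.56 ± 0.15, adjusted p = 0.0283), a call lost without any 1 of the 3 anti-PD1 libraries (adjusted p up to 0.0936) and without both doubted libraries, MC38 alone replicate 3 and anti-PD1 replicate 3 (0.0669). Psmb7 had a log2 fold change of 0.38 ± 0.15 in isotype co-cultures (adjusted p = 0.125), where Psmb5 had 0.11 and Psmb6 -0.01.

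Psmb9 minus Psmb6 averaged -1.50 ± 0.03 log2 units in isotype co-cultures, -1.38 ± 0.11 in anti-PD1 co-cultures and -3.68 ± 0.32 in MC38 alone (SD, n = 3). Psmb8 minus Psmb5 averaged -1.22 ± 0.15 in isotype co-cultures, -1.10 ± 0.27 in anti-PD1 co-cultures and -2.28 ± 0.39 in MC38 alone. Psmb10 minus Psmb7 averaged 0.36 ± 0.30 in isotype co-cultures, 0.04 ± 0.21 in anti-PD1 co-cultures and -1.01 ± 0.28 in MC38 alone. Psmb10 therefore reached the listed level of its constitutive counterpart in co-culture, whereas Psmb8 and Psmb9 remained below theirs, with the reservation that genes can differ in how well their 3' ends are captured. None of the 3 differences overlapped between either co-culture and MC38 alone, and each gave p = 0.1 in a 2-sided exact permutation test, the smallest that 3 against 3 libraries allow. Without both doubted libraries none overlapped either: Psmb9 minus Psmb6 then averaged -1.41 in anti-PD1 co-cultures and -3.54 in MC38 alone, Psmb8 minus Psmb5 -1.07 and -2.48, and Psmb10 minus Psmb7 0.08 and -1.17, in the same order.

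The same differences were taken in vitro, where values were normalized separately, and their levels were not compared with those of co-culture. Psmb9 minus Psmb6 averaged -5.48 log2 units with TNF, -4.48 with IFNG, -4.13 with TNF + IFNG, -4.10 with supernatant and -5.18 in untreated cells. Psmb10 minus Psmb7 averaged -0.93 with TNF, -0.48 with IFNG, -0.33 with TNF + IFNG, -0.85 with supernatant and -1.61 in untreated cells. Both IFNG, both TNF + IFNG and both supernatant libraries were above untreated for both differences, and TNF was below untreated for Psmb9 minus Psmb6 and above it for Psmb10 minus Psmb7. Psmb8 minus Psmb5 averaged -3.66 with TNF, -3.66 with IFNG, -3.64 with TNF + IFNG, -3.03 with supernatant and -3.17 in untreated cells, so it was not higher with either cytokine. With 2 libraries against 2 the exact permutation test cannot go below 0.333.

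**Figure D5:**
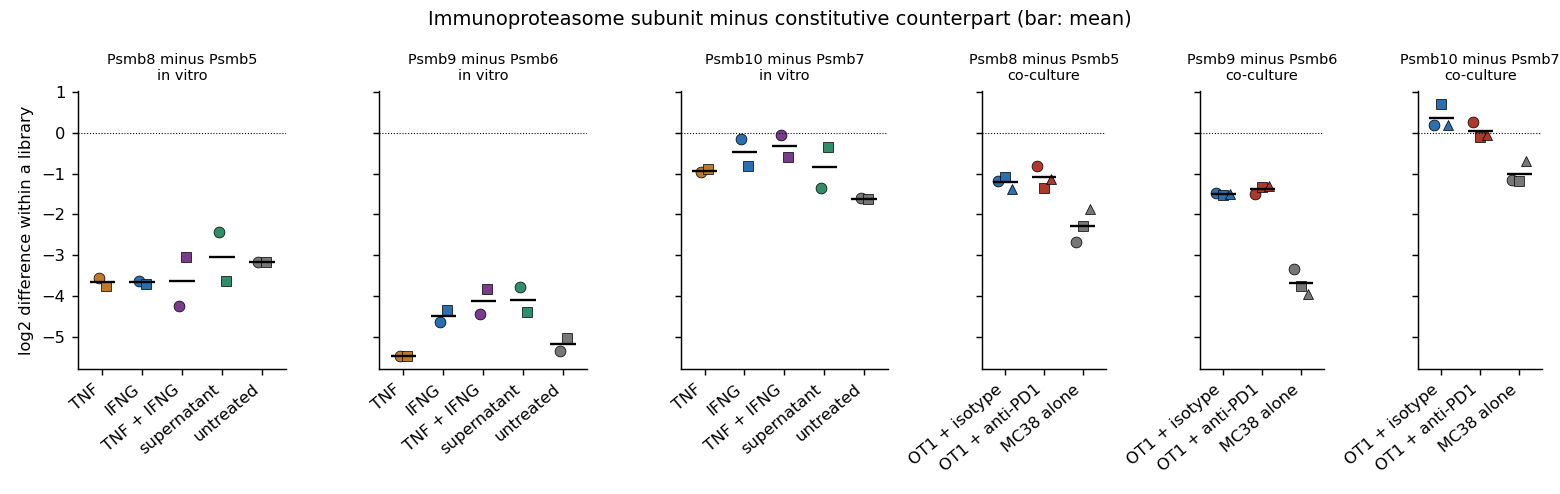
Log2 level of each inducible catalytic subunit minus that of the constitutive subunit it replaces, within each library (y axis, log2 units; x axis, group); each point is 1 library, its shape the replicate, and each bar the group mean. Psmb10 minus Psmb7 lies near 0 in co-culture, Psmb8 minus Psmb5 and Psmb9 minus Psmb6 stay below 0, and in co-culture all 3 lie above MC38 alone without overlap.

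Both PA28 chains rose by similar amounts in co-culture. Psme2 minus Psme1 averaged 1.89 ± 0.30 log2 units in isotype co-cultures, 1.88 ± 0.23 in anti-PD1 co-cultures and 1.85 ± 0.15 in MC38 alone (SD, n = 3), and the groups overlapped (exact permutation p = 0.9 for isotype and 0.8 for anti-PD1), also without both doubted libraries. Psme3, which forms the nuclear activator of the same family and pairs with neither chain, had a log2 fold change of 0.18 in isotype and -0.02 in anti-PD1 co-cultures (limma adjusted p = 0.397 and 0.932). Psme4, the activator PA200, had -0.18 and -0.20 in the same order (adjusted p = 0.388 and 0.326), and fell with TNF + IFNG in vitro (-0.71 ± 0.14, adjusted p = 0.0248, not called without any 1 of 5 libraries).

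The other proteasome genes were counted by their place in the particle, beside calls for 13.9% of all genes in isotype co-cultures, 16.1% in anti-PD1 co-cultures and 9.02% with TNF + IFNG. None of the 4 other beta subunits of the barrel was called in either co-culture or in any treatment against untreated cells. Of 7 alpha subunits measured, 0 were called higher and 1 lower in each co-culture (Psma3, log2 fold change -0.52 in isotype and -0.49 in anti-PD1 co-cultures). Of 23 subunits of the 19S regulator, which recognises and unfolds substrates, 2 rose and 2 fell in isotype co-cultures, and 2 rose and 1 fell in anti-PD1 co-cultures. Psmd8 rose in both, by 0.66 and 0.78 log2 units (adjusted p = 0.00635 and 0.00232). Psmd11 rose by 0.55 and 0.67, Psmc6 fell by 0.45 and 0.36, and Sem1 fell in isotype co-cultures, by 0.37. Of these calls, those of Psmd8 in both co-cultures and of Psmd11 with anti-PD1 were kept whichever library was left out, and the others were lost without 1 or more single libraries. Without both doubted libraries the calls of Sem1 in isotype (adjusted p = 0.0784) and of Psmc6 in anti-PD1 co-cultures (0.055) were lost. With TNF + IFNG 5 of the 23 rose (Psmc1, Psmc3, Psmc4, Psmc5 and Adrm1) and 5 fell (Psmc2, Psmd3, Psmd5, Psmd8 and Sem1), each lost without any 1 of 3 to 8 libraries. With TNF + IFNG 1 alpha subunit fell (Psma5, -1.43 log2 units, adjusted p = 0.0117, lost without untreated replicate 2). Pomp, the chaperone that helps assemble new barrels, rose in isotype co-cultures (0.56 ± 0.15, adjusted p = 0.0334, lost without any 1 of 6 libraries) and did not pass in anti-PD1 co-cultures (0.43 ± 0.15, adjusted p = 0.0786). Of the 5 assembly factors, Pomp was the 1 called in co-culture, and with TNF + IFNG 0 rose and 2 fell (Psmg2 by 0.96 log2 units, adjusted p = 0.0396, and Psmg3 by 0.62, adjusted p = 0.0448), lost without any 1 of 8 and of 7 libraries.

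Genes that carry and load the peptides rose in the same co-cultures. Of 8 genes of peptide transport and loading, 5 rose in each co-culture (Tap1, Tap2, Tapbp, Tapbpl and Erap1), 3 with TNF + IFNG (Tap1, Tapbp and Tapbpl), 1 with IFNG and 1 with supernatant (Tap1 in both) and 0 with TNF, and none fell. Of all genes, 7.64% were called higher in isotype co-cultures, 8.42% in anti-PD1 co-cultures and 4.77% with TNF + IFNG. Erap1 was lost in isotype co-cultures without either of 2 libraries, and Tapbp with TNF + IFNG without any 1 of 3. In anti-PD1 co-cultures Tapbp (adjusted p = 0.0376) was lost without any 1 of 6 libraries and without both doubted ones (0.0889). Tap1, which shares its upstream region with Psmb9, was 4.21 and 4.55 log2 CPM with TNF, 6.16 and 6.16 with IFNG, 6.37 and 6.09 with TNF + IFNG, 6.13 and 6.19 with supernatant, and 4.01 and 4.08 in untreated cells. All its libraries with IFNG, TNF + IFNG or supernatant lay above every other one. It rose by 2.11 ± 0.16 log2 units with IFNG (limma adjusted p = 0.000503), 2.18 ± 0.16 with TNF + IFNG (0.000241) and 2.11 ± 0.16 with supernatant (0.000442), and by 2.86 in isotype and 2.74 in anti-PD1 co-cultures.

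Psmb9 minus Tap1 averaged -1.13 log2 units with TNF, -1.80 with IFNG, -1.46 with TNF + IFNG, -1.60 with supernatant and -0.68 in untreated cells, and no treated library overlapped the untreated pair. In co-culture it averaged -1.41 with isotype, -1.20 with anti-PD1 and -0.72 in MC38 alone, with the anti-PD1 libraries overlapping MC38 alone; without both doubted libraries it averaged -1.33 with anti-PD1 and -0.91 in MC38 alone, and did not overlap. Psmb9 was thus lower relative to Tap1 in the treated and isotype libraries (exact permutation p = 0.333 in vitro and 0.1 for isotype, each the smallest possible, and 0.2 for anti-PD1). Tap2, the second chain of the transporter and the neighbour of Psmb8 on its other side, rose by 1.69 ± 0.24 log2 units in isotype and 2.70 ± 0.24 in anti-PD1 co-cultures (limma adjusted p = 0.00118 and 4.83e-05). In vitro Tap2 had log2 fold changes of -1.20 with TNF, -2.30 with IFNG, -2.16 with TNF + IFNG and -1.13 with supernatant, none of which passed the test (adjusted p = 0.84, 0.421, 0.0919 and 0.864).

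Irf1 and Nlrc5, factors of the interferon and class I pathways, were called in more treatments in vitro than the 5 genes. Irf1, an interferon-induced transcription factor, rose by 2.47 log2 units with TNF, 3.06 with IFNG, 3.44 with TNF + IFNG and 3.18 with supernatant (limma adjusted p = 6.21e-05 or less), and by 3.35 in isotype and 3.44 in anti-PD1 co-cultures. With TNF, Irf1 rose while none of the 5 genes was called. Irf1 was called in the interaction of TNF and IFNG, at -2.08 log2 units (limma adjusted p = 0.00492, lost without any 1 of 3 libraries). Its rise with both cytokines was thus smaller than the sum of the separate rises. Nlrc5, the transactivator of class I genes, rose by 2.30 with IFNG (adjusted p = 0.0477), 2.47 with TNF + IFNG (0.0118) and 2.38 with supernatant (0.0328), and by 2.81 in isotype and 2.53 in anti-PD1 co-cultures. The calls of Nlrc5 with IFNG and with supernatant were each lost without any 1 of 9 libraries.

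Of 12 genes of interferon signalling, 1 rose with TNF, 5 with IFNG, 8 with TNF + IFNG and 6 with supernatant, and none fell. In isotype co-cultures 10 rose and 0 fell, and in anti-PD1 co-cultures 11 rose and 1 fell (Jak1, a kinase of the receptor, adjusted p = 0.0257), a call lost without any 1 of 3 libraries and without both doubted ones (0.114). On leaving out 1 library the number that rose was 4 to 5 with IFNG, 6 to 9 with TNF + IFNG, 4 to 5 with supernatant, 10 to 11 in isotype and 9 to 11 in anti-PD1 co-cultures. Of 6 NF-kB factors, 2 rose with TNF, 0 with IFNG, 5 with TNF + IFNG, 0 with supernatant and 5 in each co-culture. Without either untreated library only 1 remained with TNF + IFNG (Nfkbia, which encodes the inhibitor of NF-kB), and with TNF only Nfkbia remained without any 1 of 6 libraries. The count was 4 to 6 in each co-culture on leaving out 1 library. Of 7 class I heavy and light chains, 0 were called in any treatment in vitro, 3 rose in isotype co-cultures (H2-K1, H2-D1 and H2-Q4) and 1 in anti-PD1 co-cultures (H2-D1). The isotype count was 0 without isotype replicate 1 or isotype replicate 3. The all-gene shares given above, 0.275% called with TNF, 0.354% with IFNG and 0.448% with supernatant, apply to these counts too. So do the shares called higher, 4.77% with TNF + IFNG, 7.64% in isotype and 8.42% in anti-PD1 co-cultures.

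Correlations among the 5 genes describe how alike their levels were across libraries. Pearson's r between pairs of them, over libraries of 1 table and so over shared groups, ranged from 0.86 to 0.97 over the 9 co-culture libraries, which fall into co-cultures and MC38 alone, and from 0.83 to 0.99 over the 7 left without both doubted libraries. Over the 10 in vitro libraries it ranged from -0.60 (Psmb8 with Psme1) to 0.84 (Psmb10 with Psme1), with 0.69 for Psmb9 with Psmb10 and 0.68 for Psmb8 with Psme2. These are descriptions of a few libraries that share their treatments. The genes whose levels were most like the mean of the 5, each centred on its own mean, were Cd274 (r = 0.94), Gm43302 (0.93), Irgm2 (0.93), Parp9 (0.93) and Gbp4 (0.92) over the 10 in vitro libraries. Cd274 encodes the ligand of PD1. Over the 9 co-culture libraries they were Ninj1, Ifit1, Nfkbie, Ifi206 and Slfn2, each with r = 0.99, and 0.99 to 1.00 without both doubted libraries. Of the constitutive counterparts, Psmb5 had r = -0.17 in vitro and 0.45 in co-culture (0.53 without both doubted libraries). In the same order of tables, with all libraries, Psmb6 had 0.41 and 0.02, and Psmb7 0.06 and 0.74.

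Overlapping genes limit 3 of these values. Psmb8 shares 2139 bases with the antisense gene Gm20496, all 2710 bases of Psmb10 lie within Gm16156, and the 3' end of Psme1 shares 14 bases with that of Emc9. The antisense genes are not in the tables, and the use of strand in counting is not stated, so reads of both strands cannot be told apart for these genes.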

How the data were processed

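RNA of MC38 cells was measured in 19 libraries made with a QuantSeq 3' kit, per the labels' protocols. Tools named in the submitters' processing notes are HISAT2, Subread with featureCounts, limma, cutadapt 1.7 and FastQC, on GRCm38 (mm10). The deposited log2 values are normalized log2 CPM with nearly the same distribution in every library of a table: 2 to their power sums to between 993229 and 998505 per library. The 2 tables were normalized separately, so each test stayed within a table.

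Genes reaching a log2 value of 0 in 2 libraries in vitro or 3 in co-culture were tested with limma 3.58.1 in R 4.3.3, with an intensity trend and all groups of a table in 1 fit, 2-sided, with Benjamini-Hochberg adjustment over all genes tested and a threshold of 0.05. The filter removed 0 genes in vitro and 239 in co-culture. The fit was tested on simulated data. Genes named are the 5 members, fixed counterparts and neighbours, other listed genes that passed or are at the end of their list, and the 5 genes most like the members. Members and lists were chosen with earlier results of these data known. Gene positions are from GENCODE M21 on GRCm38, and start sites for the motif search are from RefSeq. Alternatives were the filter, a pseudocount of 1, no trend, only the groups compared, library weights, a replicate block, median centring and each library left out.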

Additional observations from a re-analysis of the deposited data

How the results depend on the processing

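In co-culture Psmb8, Psmb9, Psmb10 and Psme2 kept their calls under every alternative run, and the number of genes called stayed at 4 or 5, the gene lost being Psme1. In vitro the counts moved. IFNG against untreated gave 2 called genes (Psmb9 and Psmb10) with only the groups compared and 2 with library weights. TNF + IFNG against untreated gave 0 with only the groups compared (adjusted p = 0.0608 for Psmb9 and 0.0596 for Psmb10) and 0 to 2 on leaving out 1 library. TNF + IFNG against TNF gave 0 with no intensity trend, with only the groups compared, with library weights and with the replicate block, and 0 to 1 on leaving out 1 library. The causes were not tested.

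Replicate numbers did not pair the libraries: deviations of same-numbered libraries correlated at -0.287 to 0.0941 in vitro (20 pairs) and -0.0541 to 0.109 in co-culture (9 pairs, 1 over 0.1). Beside the call named above, the replicate block ended that of Psme1 in isotype co-cultures (adjusted p = 0.0504), as did no intensity trend (0.0566).

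Only differences that were not called changed sign. With 1 library left out, the log2 difference ranged, against untreated cells, from -0.24 to 0.0035 (Psmb9) and from -0.017 to 0.20 (Psme2) with TNF, from -0.18 to 0.27 (Psme2) with TNF + IFNG, and from -0.50 to 0.61 (Psmb8) and from -0.23 to 0.34 (Psme2) with supernatant. For TNF + IFNG it ranged from -0.45 to 0.23 (Psmb8) and -0.33 to 0.12 (Psme2) against IFNG, and from -0.37 to 0.31 (Psmb8) and -0.28 to 0.18 (Psme2) against TNF. For supernatant it ranged from -0.22 to 0.89 (Psmb8), -0.027 to 0.23 (Psme1) and -0.38 to 0.19 (Psme2) against IFNG, and from -0.11 to 1.00 (Psmb8), -0.42 to 0.0034 (Psmb9) and -0.27 to 0.30 (Psme2) against TNF + IFNG. The interaction ranged from -0.093 to 0.59 (Psmb8), -0.16 to 0.14 (Psme1) and -0.43 to 0.030 (Psme2). Anti-PD1 against isotype ranged from -0.018 to 0.21 (Psmb8), -0.014 to 0.17 (Psmb9), -0.057 to 0.18 (Psme1) and -0.0071 to 0.061 (Psme2), and was -0.014 for Psmb9 and -0.012 for Psme1 without MC38 alone replicate 3 and anti-PD1 replicate 3.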

Other observations

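In vitro, Psmb8 and its neighbour Tap2, the second chain of the peptide transporter, were both uneven within the supernatant pair and within the TNF + IFNG pair. Tap2 was 4.54 and 4.07 log2 CPM with TNF, 3.10 and 3.33 with IFNG, 2.72 and 3.98 with TNF + IFNG, 5.67 and 3.08 with supernatant, and 5.14 and 5.88 in untreated cells. The first supernatant library was the higher of its pair for both genes (6.37 against 5.26 log2 CPM for Psmb8), and the first TNF + IFNG library the lower (5.03 against 5.71). The other pairs did not share this: Psmb8 was 5.40 and 5.40 with TNF and 5.75 and 5.76 in untreated cells, where Tap2 differed within each pair. Unevenness in the supernatant and TNF + IFNG pairs was not particular to these neighbours. Psme2, on chromosome 14, was 7.24 and 6.67 log2 CPM with supernatant and 6.72 and 7.17 with TNF + IFNG, in the same directions. Psmb7 had an SD of 0.58 with supernatant, and Psmc1 1 of 0.67 with TNF + IFNG. Psmb8 minus Tap2 averaged 1.09 log2 units with TNF, 2.27 with IFNG, 2.02 with TNF + IFNG, 1.44 with supernatant and 0.25 in untreated cells. In co-culture, doubted libraries included, it went the other way, averaging 1.24 with isotype, 0.31 with anti-PD1 and 1.76 in MC38 alone. The isotype libraries overlapped MC38 alone and the anti-PD1 libraries did not. This pair was chosen after its values were seen.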
